A study of Mus musculus with 40 samples.

Results

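The CC chemokines described here are the products of 10 mouse genes, *Ccl2*, *Ccl3*, *Ccl4*, *Ccl5*, *Ccl6*, *Ccl7*, *Ccl9*, *Ccl12*, *Ccl17* and *Ccl22*, picked by gene symbol from the 27179 genes of the deposited expression table. All 10 were present, each in 1 row, and all 10 passed the filter on low expression in every comparison. Their mRNAs were measured by poly(A) RNA-seq in bone marrow-derived macrophages (BMDMs), cells grown from femoral marrow for 7 days in medium conditioned by L cells, which supplies the growth factor M-CSF. The WT and *Cpeb4*-/- groups each came from 4 adult male mice on a mixed C57BL/6J and 129 background. The knockout is a total one, not limited to macrophages. *Cpeb4* encodes a protein that binds the 3' UTRs of mRNAs. Macrophages of each mouse were left untreated or given LPS from E. coli, a bacterial wall component sensed by TLR4, at 10 ng/ml for 1, 3, 6 or 9 hr. There were thus 40 libraries, with 4 mice per genotype and time, and with 2 mice of each genotype in each of 2 batches. No cage held both genotypes, so cage and genotype cannot be told apart.

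CC chemokines are small secreted proteins that draw leukocytes to a tissue by engaging G protein-coupled receptors on them. CCL2, CCL7 and CCL12 act mainly through CCR2 and attract monocytes, CCL3, CCL4 and CCL5 attract monocytes, T cells and NK cells, CCL6 and CCL9 act through CCR1, and CCL17 and CCL22 attract T cells through CCR4. In macrophages, LPS induces most of these genes through NF-kB and IRF transcription factors, and many of the mRNAs are short-lived, because AU-rich elements built of AUUUA motifs in their 3' UTRs are bound by decay factors such as tristetraprolin. CPEB proteins bind a different U-rich element in the 3' UTR, the cytoplasmic polyadenylation element (CPE).

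By GENCODE annotation of GRCm38, 8 of the genes lay in 2 groups on chromosome 11. The first held *Ccl2* at chr11:82035571-82037453, *Ccl7* at chr11:82045712-82047525 and *Ccl12* at chr11:82101845-82103400, all on the plus strand. The second held *Ccl5* at chr11:83525778-83530518, *Ccl9* at chr11:83572919-83578636, *Ccl6* at chr11:83587882-83593087 and *Ccl3* at chr11:83647844-83649355 on the minus strand, and *Ccl4* at chr11:83662584-83664683 on the plus strand. *Ccl22* at chr8:94745590-94751699 and *Ccl17* at chr8:94810453-94812036 were neighbours on the plus strand of chromosome 8. No stretch of 50 bases in the mRNAs of 9 of the genes recurred in the mRNA of another gene, and for *Ccl9* 2.00% of such stretches did. RefSeq gives *Ccl4* a longer extent that overlaps *Ccl3* on the opposite strand, and whether the counting used strand was not given in the sources used here, so reads between the 2 genes could be assigned to either.

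Expression is given as rlog, the regularized log2 value of DESeq2. The values are corrected for library size, hold no read depth of their own, and are pulled toward the mean of a gene where its counts were low, so differences of weakly expressed genes such as *Ccl17* are understated. Within a group, values are listed in the order of mice 25, 88, 69 and 87 for WT and 3, 62, 2 and 55 for *Cpeb4*-/-, the first 2 of each from batch 1 and the last 2 from batch 2. Replicate libraries correlated with r between 0.992 and 0.998 over 60 pairs. The targeted mRNA, *Cpeb4*, was lower in *Cpeb4*-/- at 6 hr, at 9.45, 8.74, 8.87 and 9.66 against 10.42, 10.62, 10.67 and 10.09 in WT (limma, adjusted p = 0.0011), and its groups overlapped at the other 4 times. The ranges in WT and *Cpeb4*-/- were 7.03 to 8.13 and 6.88 to 7.87 untreated, 7.68 to 9.46 and 8.22 to 9.41 at 1 hr, 8.82 to 10.88 and 9.02 to 9.47 at 3 hr and 8.89 to 9.41 and 7.87 to 9.27 at 9 hr, so this mRNA checked the genotype labels at 6 hr alone, and elsewhere the labels were used as given. Which part of the gene the remaining reads came from is not known here. All 8 macrophage markers examined were expressed. Their summed level (log2 of the summed values) was 18.98 to 19.29 in untreated WT and 18.65 to 18.91 in untreated *Cpeb4*-/-, and the ranges were also apart at the other 4 times. *Lyz2*, with an average of 18.24 over the 40 libraries, contributed most to this sum, ahead of *Adgre1* with 15.94. Of these markers, *Cd14*, *Lyz2*, *Fcgr1*, *Cd68* and *Csf1r* passed the test as lower in *Cpeb4*-/- at 1 or more times, and of the 8 markers 1, 1, 2, 4 and 3 passed from untreated to 9 hr, none of them higher. Over all genes, 1.31%, 1.91%, 3.68%, 16.3% and 7.91% passed in either direction at these times. Of 8 neutrophil markers, *Ly6g* and *Elane* were at or below 0 in all 40 libraries, but *S100a8* (5.00 to 7.70), *S100a9*, *Camp*, *Ngp* and *Ltf* were above 0 in all, and 3 to 5 of the 8 averaged above the filter in a group. Their part in the results below was not tested. Of 5 mast cell markers, *Fcer1a*, *Mcpt4* and *Tpsb2* were at or below 0 in all 40 libraries and 1 averaged above the filter. So did 1 of 5 T cell and 1 of 4 B cell markers. The 2 NK cell markers summed to 1.34 to 1.52 in untreated WT and 2.72 to 3.09 in untreated *Cpeb4*-/-. Their ranges were apart at 1 and 3 hr too, and overlapped at 6 and 9 hr. Of 6 stromal markers at 9 hr, 1 averaged above the filter in WT and 3 in *Cpeb4*-/-. The part of these cell types was not tested.

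LPS raised 9 of the 10 CC chemokine mRNAs in WT macrophages, by 3.03-fold (*Ccl9*) to 26.1-fold (*Ccl5*) at 6 hr, while *Ccl6* stayed near its untreated level. At 1, 3, 6 and 9 hr, 9 of 10 mRNAs passed the test against untreated cells each time, all of them higher. Over all genes tested, 33.9%, 67.8%, 77.9% and 71.5% passed in either direction, so LPS changed most expressed genes from 3 hr on.

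**Figure D1:**
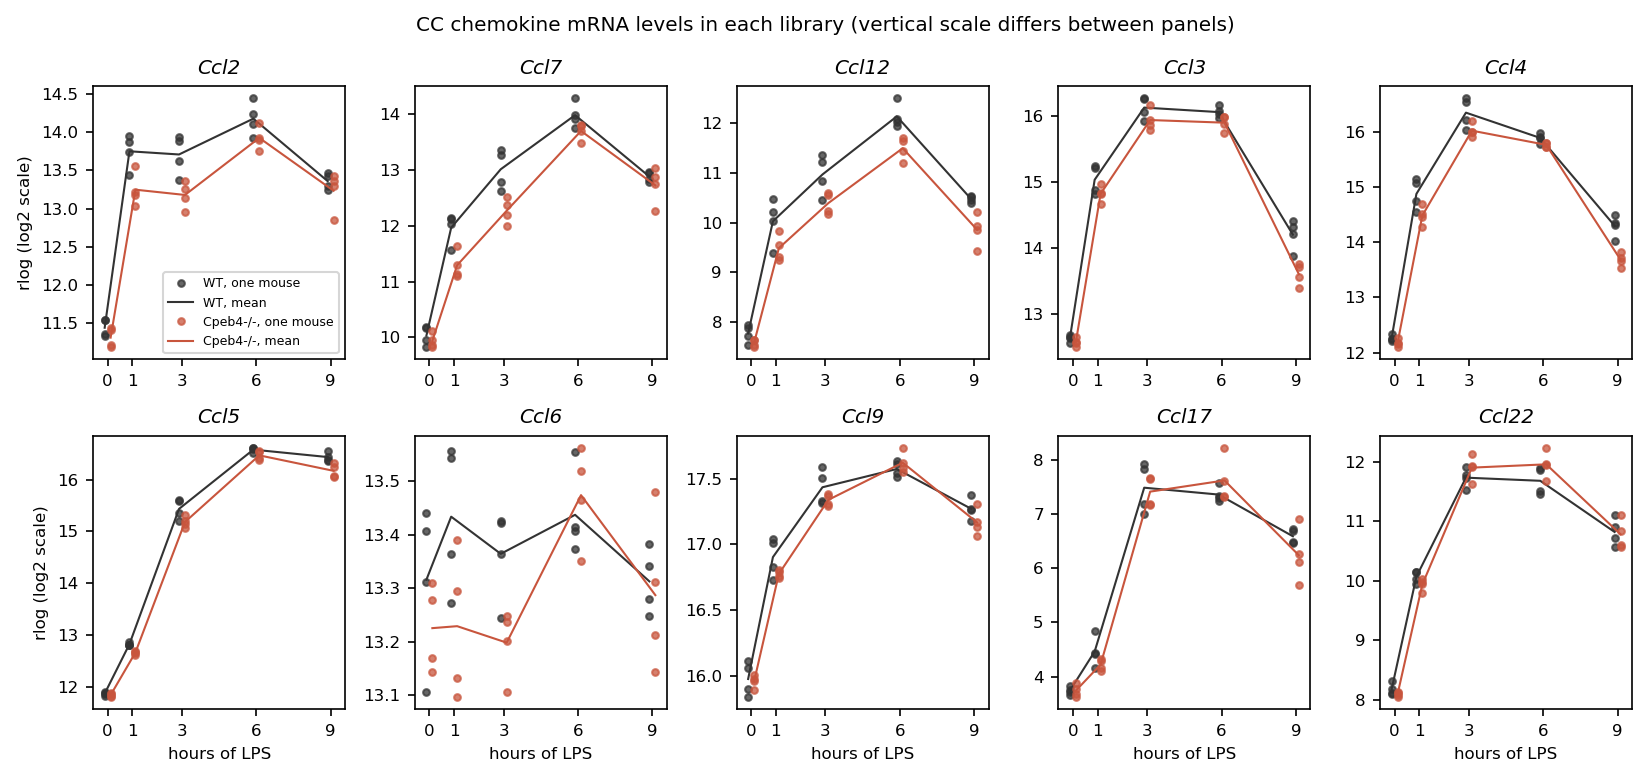
CC chemokine mRNA levels (vertical axis, rlog on a log2 scale, with a scale of its own in each panel) against hours of LPS (horizontal axis, 0 is untreated) in WT and *Cpeb4*-/- macrophages; points are single mice and lines are means of 4 mice. Levels at 6 hr were well above untreated for 9 mRNAs, *Ccl6* moved least, and *Ccl3* and *Ccl4* fell furthest by 9 hr.

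Among the monocyte attractants, *Ccl2* came nearest to its highest level within 1 hr. *Ccl2* mRNA stood at 11.37, 11.54, 11.33 and 11.54 in untreated WT cells and had climbed to 13.75, 13.95, 13.44 and 13.87 after 1 hr, a gain of 2.31 (SE 0.12; limma with Benjamini-Hochberg adjustment, adjusted p = 3.66e-12). At 6 hr it had reached 13.93, 14.44, 14.24 and 14.10, so that the level at 1 hr was already 75.5% ± 14.1 (SD, n = 4) of the highest in each mouse. *Ccl7* and *Ccl12* climbed for longer. *Ccl7* went from 9.95, 10.18, 9.83 and 10.16 untreated to 12.04, 12.14, 11.56 and 12.13 at 1 hr and 13.75, 14.28, 13.99 and 13.91 at 6 hr, with 25.2% of the highest level present at 1 hr. *Ccl12* went from 7.73, 7.88, 7.55 and 7.94 to 10.04, 10.22, 9.38 and 10.47 and then 12.02, 12.49, 11.94 and 12.07, with 24.0% present at 1 hr. Untreated values lay below all LPS values of the same mRNA for the 3 genes, and all 3 had their highest value at 6 hr in 8 of 8 mice of both genotypes.

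Of the ligands that attract monocytes, T cells and NK cells, *Ccl3* and *Ccl4* rose early. *Ccl4* mRNA rose from 12.21, 12.25, 12.24 and 12.33 in untreated WT cells to 16.54, 16.02, 16.21 and 16.60 at 3 hr, the time of its highest value in 8 of 8 mice. *Ccl3* rose from 12.56, 12.65, 12.64 and 12.69 to 16.26, 15.92, 16.06 and 16.26 at 3 hr and held 15.97, 16.02, 16.07 and 16.17 at 6 hr, and its highest value fell at 3 hr in 2 and at 6 hr in 2 of the 4 mice of each genotype. *Ccl5*, whose product attracts the same cells, was late: it stood at 11.83, 11.88, 11.91 and 11.87 untreated, at 12.82, 12.86, 12.81 and 12.82 at 1 hr and at 16.51, 16.61, 16.61 and 16.59 at 6 hr. Only 7.43% of its highest WT level was present at 1 hr, the lowest share of the 10 mRNAs, and at 6 hr its rise was the largest, 4.71 (SE 0.069, adjusted p = 8.42e-22).

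The CCR4 ligands were the least abundant. *Ccl17* was near the filter in untreated WT cells, at 3.83, 3.72, 3.75 and 3.66, and reached 7.83, 7.19, 7.01 and 7.93 at 3 hr, a gain of 3.75 (SE 0.17). *Ccl22* rose from 8.09, 8.11, 8.31 and 8.17 to 11.78, 11.53, 11.73 and 11.91 over the same time, when 3 of 4 WT mice had their highest *Ccl22* and 2 of 4 their highest *Ccl17*, a gain of 3.57 (SE 0.11), and at 1 hr it had already gained 1.90, against 0.72 for *Ccl17*. Both are best known from dendritic cells. The 7 dendritic markers had summed levels of 11.59 to 12.02 in untreated WT libraries, made almost wholly of *Itgax*, which macrophages can also express. *Xcr1* (4.42 to 7.06), *Clec9a* (2.15 to 4.17), *Zbtb46*, *Siglech* and *Flt3* were also above 0 in all 40 libraries, and *Cd209a* was at or below 0 in 28. In untreated WT cells 5 of the 7 averaged above the filter. The part of such cells in the CCR4 ligand signal was not tested, and in bulk libraries fewer cells of a type and less RNA per cell cannot be told apart.

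*Ccl6* and *Ccl9*, both ligands of CCR1 and neighbours on chromosome 11, were abundant before LPS and responded unequally. *Ccl9* mRNA stood at 15.84, 16.05, 15.89 and 16.11 in untreated WT cells and had reached 17.54, 17.61, 17.51 and 17.63 by 6 hr, a rise of 1.60 (SE 0.080, adjusted p = 1.62e-13) without overlap of the groups. *Ccl6* stood at 13.11, 13.41, 13.31 and 13.44 and 13.37, 13.56, 13.41 and 13.41 at the same times, a difference of 0.12 (SE 0.073, adjusted p = 0.136), and these groups overlapped. In *Cpeb4*-/- cells *Ccl6* at 6 hr was 0.25 above untreated and passed the test (adjusted p = 0.00352). The direction for *Ccl6* depended on the scaling of the libraries: under quantile normalization the difference at 6 hr became -0.74 in WT and -0.55 in *Cpeb4*-/-, whereas the rise of *Ccl9* kept its sign.

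The promoters of this pair are shown because the genes lie side by side and differ in their response. The RefSeq windows on GRCm38.p6 run from 250 bases before to 50 bases after the gene start and are written 5' to 3' on the minus strand, *Ccl9* at chr11:83578587-83578886 and *Ccl6* at chr11:83593038-83593337, with capitals for matches to TGANTCA (AP-1) and to the NF-kB consensus.
Ccl9: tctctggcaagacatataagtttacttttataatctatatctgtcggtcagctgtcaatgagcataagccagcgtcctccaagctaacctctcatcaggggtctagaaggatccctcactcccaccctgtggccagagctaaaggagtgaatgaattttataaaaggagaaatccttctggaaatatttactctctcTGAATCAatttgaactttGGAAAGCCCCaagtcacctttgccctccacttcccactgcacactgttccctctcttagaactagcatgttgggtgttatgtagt
Ccl6: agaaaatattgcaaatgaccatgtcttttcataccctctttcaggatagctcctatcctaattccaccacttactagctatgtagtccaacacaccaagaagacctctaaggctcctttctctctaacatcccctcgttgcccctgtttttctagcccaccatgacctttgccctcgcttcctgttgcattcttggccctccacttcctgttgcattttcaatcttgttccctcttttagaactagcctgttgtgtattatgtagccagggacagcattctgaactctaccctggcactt
The *Ccl9* window held 1 AP-1 match, 53 bases before the start, and 1 NF-kB match, 35 bases before it, searched on both strands. Of 27025 promoters, 7.93% held the first motif and 4.35% the second. The *Ccl6* window held neither, and the longest stretch shared by the windows was 13 bases. The windows of *Ccl3*, *Ccl12*, *Ccl17* and *Ccl22* also held no match to either motif or to the core of the interferon-stimulated response element, which 3.49% of promoters held. These are matches of letters, not measured binding. *Ccl2*, *Ccl4*, *Ccl5* and *Ccl7* were not searched.

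Between genes, levels were compared as rlog minus log2 of the length of the annotated transcript in kilobases. On this scale *Ccl9* led in untreated WT cells with 14.39, ahead of *Ccl3* with 13.02. *Ccl4*, *Ccl6* and *Ccl5* followed between 12.78 and 12.86, where neighbours overlapped over the 4 mice. *Ccl2* (11.74), *Ccl7* (10.35), *Ccl12* (8.67), *Ccl22* (7.02) and *Ccl17* (4.70) came next, each apart from its neighbours. By 6 hr the order had changed. *Ccl5* was then highest with 17.49, *Ccl4* and *Ccl3* overlapped at 16.49 and 16.44, and *Ccl9* came next with 15.99. *Ccl2* and *Ccl7* overlapped at 14.47 and 14.30, as did *Ccl12* and *Ccl6* at 13.03 and 12.91, while *Ccl22* (10.54) and *Ccl17* (8.32) stayed last. In *Cpeb4*-/- cells at 6 hr the order was the same but for *Ccl6*, which was at 12.95 and lay above *Ccl12* at 12.39 without overlap.

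**Figure D2:**
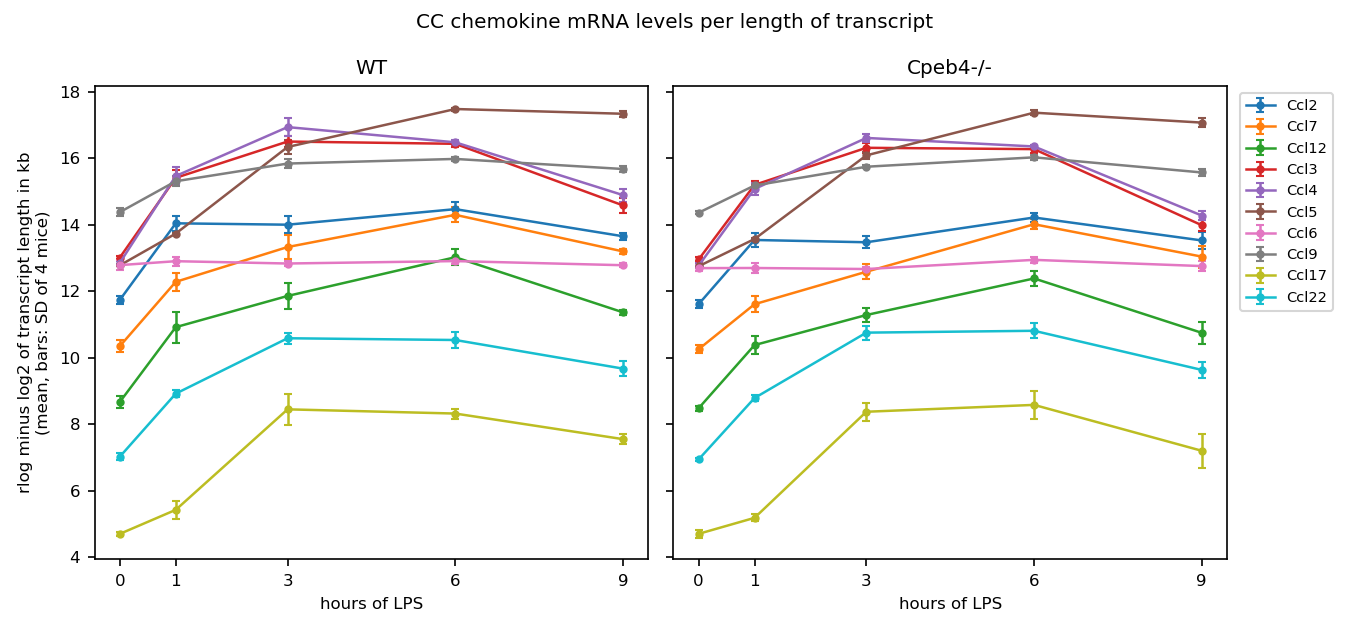
Level per length of transcript (vertical axis, rlog minus log2 of the transcript length in kb) against hours of LPS (horizontal axis) for the 10 CC chemokines in WT (left) and *Cpeb4*-/- (right); points are means and bars the SD of 4 mice. *Ccl5* climbed from the middle of the order to the top at 6 hr, and *Ccl17* was lowest throughout.

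From 6 to 9 hr the mRNAs parted. In WT cells 8 of 10 fell, all but *Ccl5* and *Ccl6*, beside 51.4% of all genes that passed in either direction. The falls were largest for *Ccl3* (-1.85, SE 0.11), *Ccl12* (-1.66) and *Ccl4* (-1.59), and smallest for *Ccl9* (-0.30, the difference turning to 0.091 under quantile normalization). *Ccl3* stood at 14.31, 13.87, 14.41 and 14.21 in WT cells at 9 hr, below all of its values at 6 hr. In *Cpeb4*-/- cells 10 of 10 fell, beside 53.6% of all genes, among them *Ccl5* (-0.30, adjusted p = 0.000224, and 0.347 under quantile normalization) and *Ccl6* (-0.19, adjusted p = 0.0333, the difference turning to 0.042 under quantile normalization). The *Ccl6* call was lost without the filter on low expression (adjusted p = 0.0661) and without *Cpeb4*-/- mouse 3 (adjusted p = 0.113), 55 (0.0675) or 62 (0.154). In WT cells *Ccl5* differed by -0.14 (adjusted p = 0.0896) or, under quantile normalization, by 0.16, and stayed close to its highest level.

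As a share of the highest level of each mouse (2 to the power of rlog), 24.5% ± 4.4 (SD, n = 4) of *Ccl4* mRNA was left at 9 hr in WT and 19.8% ± 1.6 in *Cpeb4*-/- cells. For *Ccl3* the shares were 26.1% ± 3.9 and 19.2% ± 1.8, with every *Cpeb4*-/- mouse below every WT mouse. *Ccl12* kept 32.1% ± 5.7 and 32.2% ± 2.8, the same share in both genotypes to within 1 SD. The other monocyte attractants kept more, *Ccl7* 46.8% ± 4.7 and 51.2% ± 6.6, and *Ccl2* 56.9% ± 4.7 and 62.2% ± 6.6. *Ccl17* kept 50.9% ± 12.3 and 38.5% ± 7.2, and *Ccl22* 51.6% ± 4.2 and 42.9% ± 3.8, the latter without overlap between genotypes. The level of *Ccl22* itself differed between genotypes by 0.28 at 6 hr and by -0.038 at 9 hr. How many of all genes had shares without overlap was not counted, so the separations of *Ccl3* and *Ccl22* have no background beside them. *Ccl9* kept 81.3% ± 7.2 and 73.2% ± 7.6, *Ccl6* 88.8% ± 7.2 and 88.1% ± 7.6, and *Ccl5* 90.7% ± 4.9 and 81.3% ± 3.7.

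**Figure D3:**
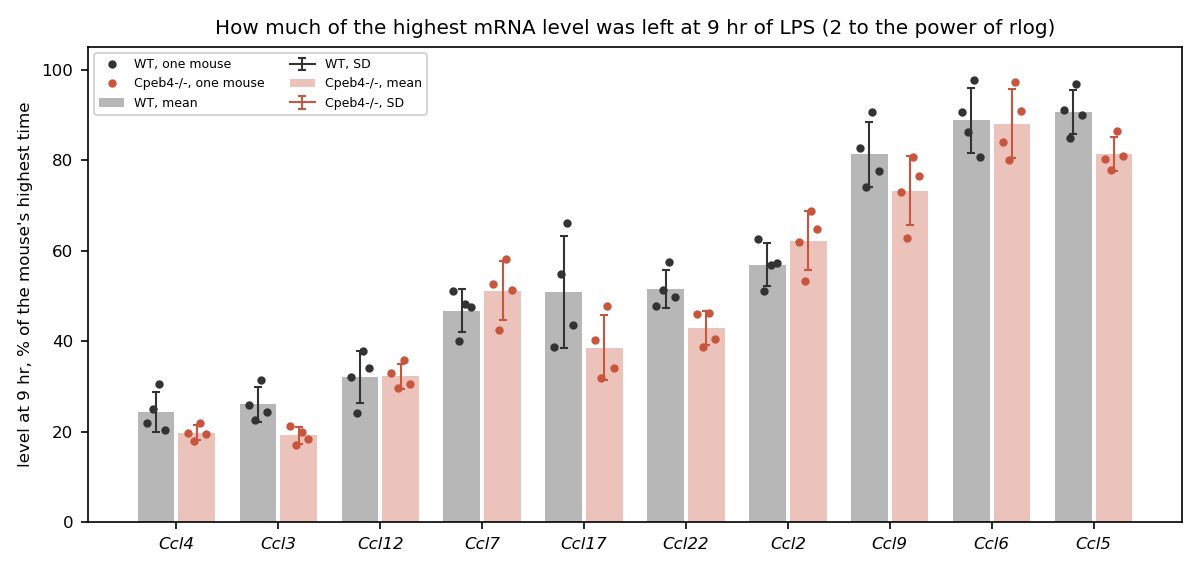
Level at 9 hr of LPS as a percent of the highest level of the same mouse (vertical axis) for each CC chemokine (horizontal axis, ordered by the WT mean); bars are means, error bars the SD and points the 4 mice of each genotype. *Ccl3* and *Ccl4* kept the least, from 17.2% to 31.5% over all mice, and *Ccl5* the most in WT.

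The 3' UTRs of these mRNAs differ in the elements that bind decay factors and CPEB proteins, so the stretches with the most AUUUA motifs are shown. Each is 30 bases of the transcribed strand of GRCm38 (GENCODE vM21), 5' to 3', with AUUUA, written as DNA, in capitals.
Ccl12: ATTTAaacaaacttgcttaaataatATTTA
Ccl3: aatactATTTAattttgtaATTTAttttat
Ccl4: ATTTAaatctctgtgtagactttgttttgt
Ccl7: tattaatatttttATTTAattagccatgta
Ccl2: taatattaaacttATTTAacttattgatgt
Ccl6: ttttatagatATTTAaagcATTTAtccttc
Ccl9: gtccATTTAtacagtggatctcATTTActg
Ccl22: tgtgaaaccctaaATTTAccaagaatcaac
They lie at chr11:82103325-82103354, chr11:83648042-83648071, chr11:83664498-83664527, chr11:82047254-82047283, chr11:82037205-82037234, chr11:83588725-83588754, chr11:83573242-83573271 and chr8:94750656-94750685, in that order, on the strand of each gene. *Ccl5* and *Ccl17* had no AUUUA. The *Ccl17* 3' UTR did hold a CPE, TTTTAT, in capitals in its stretch at chr8:94811957-94811986.
Ccl17: ccctgttcccttTTTTATggactcttatgc

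*Ccl12* packed 5 AUUUA motifs into a 3' UTR of 167 bases, 29.9 per kb, and *Ccl3* had 5 in 409 bases, 12.2 per kb. Of 18705 genes with a 3' UTR at least as long as that of *Ccl12*, 0.0695% had as many AUUUA motifs in its first 167 bases, and for *Ccl3* the share was 0.704%. *Ccl4* had 2 in 302 bases (6.62 per kb), *Ccl7* 2 in 435 bases (4.60), *Ccl6* 4 in 943 bases (4.24), *Ccl2* 1 in 275 bases (3.64), *Ccl9* 5 in 2465 bases (2.03) and *Ccl22* 2 in 1813 bases (1.10). Over 21005 genes with a 3' UTR, 65.2% had at least 1. CPEs, counted as any of the 7 letter runs TTTTAT or TTTTAAT or TTTTAAAT or TTTTACT or TTTTCAT or TTTTAAGT or TTTTGT, with overlaps allowed, were present in 9 of 10, with 14 in *Ccl9*, 4 in *Ccl7*, 3 in *Ccl3*, 2 each in *Ccl2*, *Ccl4*, *Ccl6* and *Ccl22*, 1 each in *Ccl12* and *Ccl17* and 0 in *Ccl5*.

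Set against the density of AUUUA, the change from 6 to 9 hr was most negative in the 3 mRNAs with the highest density and smallest in *Ccl6* and in *Ccl5*, which has none. *Ccl17* also has none, yet changed by -0.77 in WT and by -1.38 in *Cpeb4*-/- cells. Over the 10 mRNAs, as a description, Pearson's r was -0.66 in WT (Spearman's rho -0.74) and -0.49 in *Cpeb4*-/- (rho -0.53), and without *Ccl12*, the point farthest out, r was -0.77 and -0.66 while rho was -0.65 and -0.41. The points share libraries and several share a gene cluster, so they are not independent.

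**Figure D4:**
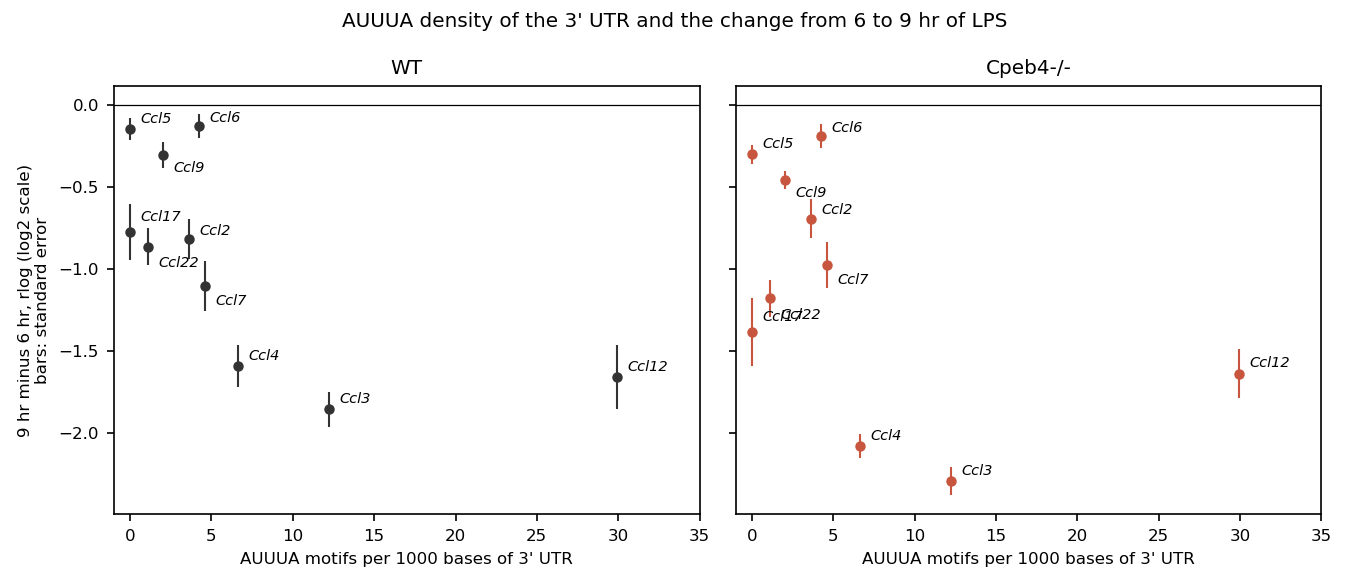
Change of mRNA level from 6 to 9 hr of LPS (vertical axis, log2 scale) against AUUUA motifs per kb of 3' UTR (horizontal axis) in WT (left) and *Cpeb4*-/- (right); points are the 10 CC chemokines and bars the standard error. *Ccl12*, *Ccl3* and *Ccl4* have the highest density and the largest falls in WT, while *Ccl17* fell without any such motif.

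Between genotypes, CC chemokine mRNAs were lower in *Cpeb4*-/- macrophages at certain times. In fits of each time alone, no mRNA passed the test in untreated cells or at 1 hr, *Ccl2* and *Ccl7* passed at 3 hr, *Ccl12* at 6 hr, and *Ccl12*, *Ccl3* and *Ccl4* at 9 hr, every one lower in *Cpeb4*-/-. Of all genes, 1.31%, 1.91%, 3.68%, 16.3% and 7.91% passed from untreated to 9 hr, so 1 of 10 at 6 hr is below that background while 3 of 10 at 9 hr and 2 of 10 at 3 hr are above it. The 10 were chosen with earlier results of these data known, and they share libraries. Their counts beside those of all genes are therefore a description, not a test of the group. The median difference of the 10 mRNAs was -0.084, -0.23, -0.22, -0.12 and -0.21 over the 5 times, beside 0.0060, 0.016, 0.0077, -0.015 and 0.0044 over all genes tested. From untreated to 9 hr 9, 10, 9, 6 and 10 of 10 means were below WT, against 48.4%, 47.1%, 48.3%, 54.5% and 49.0% of all genes. From untreated to 9 hr, 0, 6, 6, 6 and 4 of the 10 had an unadjusted p under 0.05 in either direction, beside 17.6%, 35.3%, 23.4%, 30.3% and 26.9% of all genes, and at 1 hr the adjusted p-values ran from 0.0543 (*Ccl7*) upward. Those at 6 hr included *Ccl22*, which was higher in *Cpeb4*-/-. In one fit of all 40 libraries with the mouse as a replicate block, 5 mRNAs passed at 1 hr, *Ccl7* (adjusted p = 0.00218), *Ccl2* (0.00511), *Ccl4* (0.0121), *Ccl12* (0.0179) and *Ccl6* (0.0295). In that fit *Ccl5* (0.00970) and *Ccl12* (0.0237) joined *Ccl2* and *Ccl7* at 3 hr, and *Ccl5* (0.00362) joined the 3 at 9 hr. In it 3.16%, 33.0%, 10.6%, 16.3% and 18.1% of all genes passed from untreated to 9 hr, so the background at 1 hr was far higher than in the fit of that time alone. The summed macrophage markers, led by *Lyz2*, moved in the same direction at every time. Marker by marker, the median difference of the 8 was -0.096, -0.041, -0.14, -0.25 and -0.12 from untreated to 9 hr. The part of these markers in the differences of the chemokine mRNAs was not tested.

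**Figure D5:**
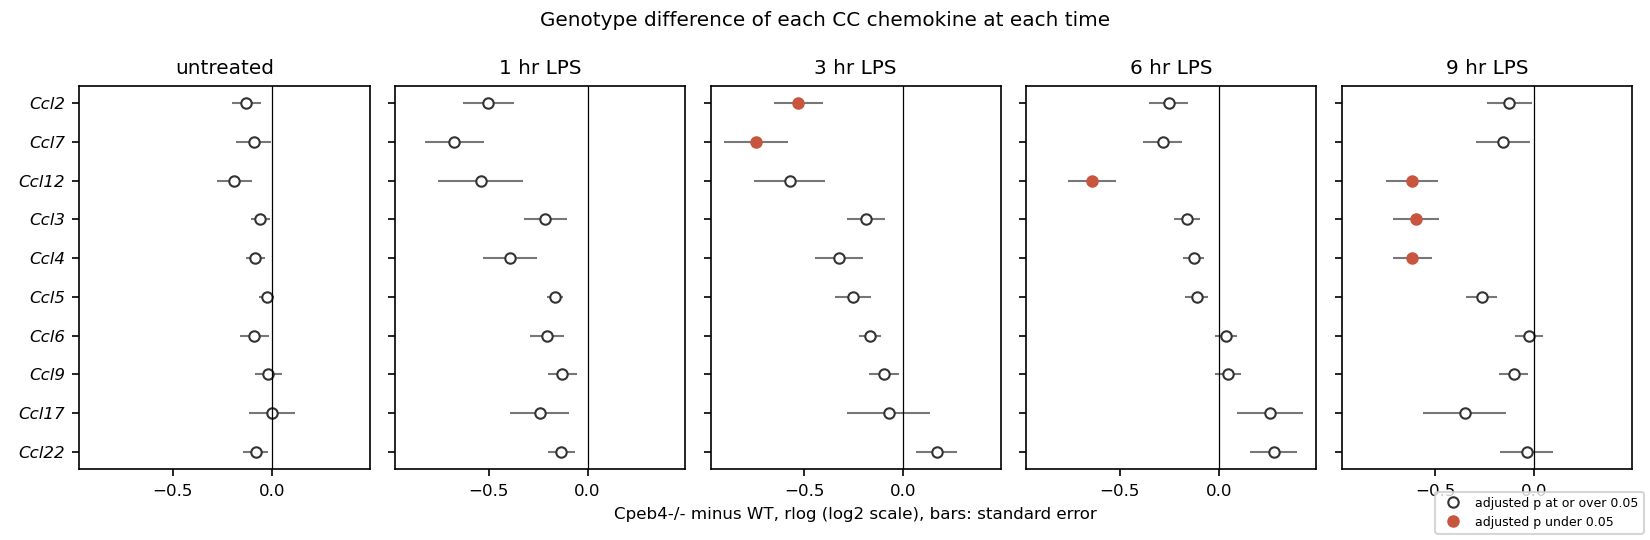
Difference between *Cpeb4*-/- and WT in mRNA level (horizontal axis, log2 scale, below 0 is lower in *Cpeb4*-/-) for each CC chemokine (vertical axis) in 5 panels by time; bars are standard errors and filled points have an adjusted p under 0.05. Filled points are *Ccl2* and *Ccl7* at 3 hr, *Ccl12* at 6 hr, and *Ccl12*, *Ccl3* and *Ccl4* at 9 hr.

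*Ccl2* and *Ccl7* passed at 3 hr. At 1 hr *Ccl7* read 12.04, 12.14, 11.56 and 12.13 in WT and 11.13, 11.10, 11.64 and 11.30 in *Cpeb4*-/-, a difference of -0.67 (SE 0.15, adjusted p = 0.0543), with 1 WT value, that of mouse 69, inside the *Cpeb4*-/- range. At 3 hr it read 13.28, 12.79, 12.63 and 13.36 in WT and 12.19, 12.00, 12.52 and 12.37 in *Cpeb4*-/-. All 4 *Cpeb4*-/- values lay below the 4 WT values, and the level was 0.597 of WT (difference -0.74, SE 0.16, adjusted p = 0.0385). *Ccl2* at 3 hr read 13.89, 13.63, 13.38 and 13.94 in WT and 13.14, 12.95, 13.26 and 13.36 in *Cpeb4*-/-, again without overlap, at 0.693 of WT (difference -0.53, SE 0.12, adjusted p = 0.0447). By 9 hr the groups overlapped for both, *Ccl2* at 13.25, 13.47, 13.42 and 13.30 and 13.43, 12.85, 13.36 and 13.30 and *Ccl7* at 12.78, 12.97, 12.94 and 12.84 and 12.87, 12.26, 13.03 and 12.74. Within batches, *Ccl7* at 3 hr differed by -0.94 in batch 1 and -0.55 in batch 2, and *Ccl2* by -0.71 in batch 1 and -0.35 in batch 2. With batch in the fit the adjusted p was 0.0576 for *Ccl7* and 0.0704 for *Ccl2*, without the filter on low expression 0.131 and 0.144, without the trend 0.0772 and 0.0873, and under quantile normalization it was 0.0569 for *Ccl2*. Neither call at 3 hr held when *Cpeb4*-/- mouse 2, 3, 55 or 62 was left out (*Ccl7* adjusted p = 0.0662, 0.126, 0.0693 and 0.107; *Ccl2* 0.105, 0.140, 0.0569 and 0.117) or when WT mouse 25 or 87 was (*Ccl7* 0.105 and 0.0688, *Ccl2* 0.126 and 0.0886). Without WT mouse 69 both passed at 1 hr as well (*Ccl2* 0.0272, *Ccl7* 0.0128), as they did without *Cpeb4*-/- mouse 2 (*Ccl2* 0.0375, *Ccl7* 0.0318).

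*Ccl12*, their neighbour on chromosome 11 and the mRNA with the densest AUUUA motifs, passed at both late times. At 3 hr its difference was -0.57 (SE 0.18, adjusted p = 0.0967) with overlapping groups. At 6 hr *Ccl12* read 12.02, 12.49, 11.94 and 12.07 in WT and 11.45, 11.19, 11.69 and 11.64 in *Cpeb4*-/-. The groups did not overlap and the *Cpeb4*-/- level was 0.642 of WT (difference -0.64, SE 0.12, adjusted p = 0.00474). At 9 hr it read 10.38, 10.44, 10.54 and 10.52 and 9.84, 9.43, 10.21 and 9.93, again apart, at 0.652 of WT (difference -0.62, SE 0.13, adjusted p = 0.0201). Since the fall from 6 to 9 hr was -1.66 in WT and -1.64 in *Cpeb4*-/-, the gap was alike at the start and the end of it. In batch 1 the difference at 6 hr was larger than in batch 2, -0.94 in batch 1 and -0.34 in batch 2. The call at 6 hr held without any of the 8 mice but not without the filter on low expression (adjusted p = 0.0560, and 0.0809 at 9 hr), and that at 9 hr was lost without WT mouse 25 (adjusted p = 0.0520), 69 (0.0641) or 87 (0.0650).

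*Ccl3* and *Ccl4* passed in the fit of 9 hr alone. At 1 hr *Ccl4* differed by -0.39 (adjusted p = 0.0979, 0.0402 without WT mouse 69) and at 3 hr by -0.33 (0.149, 0.0202 without WT mouse 88), with 3 of 4 *Cpeb4*-/- values below the lowest WT value each time. Until 6 hr the groups overlapped, with *Ccl3* at 6 hr reading 15.97, 16.02, 16.07 and 16.17 in WT and 15.98, 15.74, 15.88 and 15.98 in *Cpeb4*-/-, and *Ccl4* 15.78, 15.90, 15.88 and 15.98 and 15.73, 15.73, 15.80 and 15.80. At 9 hr *Ccl3* read 14.31, 13.87, 14.41 and 14.21 in WT and 13.76, 13.39, 13.56 and 13.72 in *Cpeb4*-/-, and all *Cpeb4*-/- values were below all WT values. The level was 0.661 of WT (difference -0.60, SE 0.12, adjusted p = 0.0139). *Ccl4* at 9 hr read 14.35, 14.03, 14.50 and 14.31 and 13.65, 13.53, 13.72 and 13.83, also without overlap, at 0.653 of WT (difference -0.62, SE 0.097, adjusted p = 0.00614). Both batches showed the difference, *Ccl3* with -0.52 in batch 1 and -0.67 in batch 2 and *Ccl4* with -0.60 in batch 1 and -0.63 in batch 2. The *Ccl4* call held without any of the 8 mice and under every alternative run, and the *Ccl3* call was lost without WT mouse 25 (adjusted p = 0.0521) and without the filter (0.0638). Summed macrophage markers at 9 hr ranged from 19.22 to 19.28 in WT and from 18.94 to 19.14 in *Cpeb4*-/-. Of the 8 markers, 3 passed as lower at that time, beside 7.91% of all genes in either direction. The difference of *Cd14* was -0.38.

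*Ccl5* showed small, even differences. Its groups did not overlap at 1 hr, 12.82, 12.86, 12.81 and 12.82 in WT and 12.67, 12.62, 12.68 and 12.69 in *Cpeb4*-/- (difference -0.16, SE 0.040, adjusted p = 0.0663), or at 9 hr, 16.38, 16.37, 16.56 and 16.44 and 16.07, 16.05, 16.32 and 16.24 (difference -0.27, SE 0.077, adjusted p = 0.0611), yet neither passed the test. With batch as covariate the difference at 9 hr passed (adjusted p = 0.0145). In a two-sided exact permutation test on 4 against 4 mice both gave p = 0.0286, the smallest p this design allows. Groups without overlap always give this p, so the permutation test adds nothing to the separation. Without *Cpeb4*-/- mouse 2 the difference at 9 hr passed (adjusted p = 0.00702). Groups with every *Cpeb4*-/- value below every WT value were found in 0, 1, 2, 1 and 4 of the 10 mRNAs from untreated to 9 hr, beside 5.04%, 8.11%, 6.58%, 12.0% and 8.51% of all genes, and groups apart in the other direction in 0 of 10 at every time, beside 5.51%, 7.55%, 7.05%, 8.16% and 8.35%.

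The CCR4 ligands and *Ccl6* and *Ccl9* did not pass at any time in the fits of each time alone, though *Ccl6* at 1 hr did in the fit of all 40 libraries given above. At 6 hr *Ccl22* read 11.46, 11.50, 11.91 and 11.87 in WT and 12.23, 11.97, 11.68 and 11.95 in *Cpeb4*-/- (difference 0.28, SE 0.12, adjusted p = 0.138), but the batches disagreed, with 0.62 in batch 1 and -0.069 in batch 2. *Ccl17* at 6 hr read 7.24, 7.34, 7.29 and 7.58 and 8.22, 7.34, 7.32 and 7.61 (difference 0.26, adjusted p = 0.323), with *Cpeb4*-/- mice 3 and 55 above the WT range. Dendritic markers summed higher in *Cpeb4*-/- with overlapping ranges (11.83 to 12.33 in untreated cells against 11.59 to 12.02 in WT, and 11.75 to 12.37 at 6 hr against 11.54 to 12.15). Of the 4 tested at 6 hr, 0 passed as higher and 1 as lower, beside 16.3% of all genes in either direction. In untreated cells and at 3 hr 1 passed as higher, beside 1.31% and 3.68%. The part of dendritic markers in the CCR4 ligands was not tested. *Ccl9* differed by at most -0.13 and *Ccl6* by at most -0.20, both at 1 hr, with overlapping groups at all 5 times.

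Within *Cpeb4*-/- cells LPS raised the same 9 mRNAs as in WT at 3 and 9 hr, and *Ccl6* as well at 6 hr. From 1 to 9 hr 8, 9, 10 and 9 of the 10 mRNAs were higher than in untreated cells, beside 43.8%, 71.3%, 79.1% and 72.8% of all genes called in either direction. *Ccl17* at 1 hr was the additional miss (difference 0.48, adjusted p = 0.0665, and 0.0159 with the mouse as a replicate block). At 6 hr *Ccl5* had gained 4.62, *Ccl12* 3.91 and *Ccl7* 3.76, against 4.71, 4.36 and 3.95 in WT.

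Whether the response itself differed between genotypes was tested as the difference of these differences over all 40 libraries. Of the 10 mRNAs, 0 passed at 1, 3 and 6 hr and for the step from 6 to 9 hr, and 1 passed at 9 hr, beside 0.00763%, 0.206%, 2.94%, 1.92% and, at 9 hr, 1.76% of all genes. Unadjusted p-values were under 0.05 for 2, 3 and 1 of the mRNAs at 1, 3 and 6 hr and for 3 from 6 to 9 hr, beside 1.57%, 5.03%, 15.1% and 14.6% of all genes. The one was *Ccl3*, which gained 1.57 from untreated to 9 hr in WT but 1.03 in *Cpeb4*-/- cells, so that the gains differed by -0.54 (SE 0.14, adjusted p = 0.0396). *Ccl4* gained 2.04 and 1.51 (difference -0.53, SE 0.16, adjusted p = 0.0702). With the mouse as a replicate block, both passed, *Ccl3* with an adjusted p of 0.0119 and *Ccl4* with 0.0222. With the same block both also passed for the fall from 6 to 9 hr, which was -1.85 in WT and -2.29 in *Cpeb4*-/- for *Ccl3* (0.0441) and -1.59 and -2.08 for *Ccl4* (0.0361), and *Ccl22* passed for the gain at 6 hr (difference 0.36, 0.0452). Without the filter the adjusted p for *Ccl3* at 9 hr was 0.0668, and without the trend 0.0527. The *Ccl3* call at 9 hr without the block held without WT mouse 88 (0.00629), when *Ccl4* passed too (0.0206), and was lost without WT mouse 25 (0.176), 69 (0.154) or 87 (0.0749) and without *Cpeb4*-/- mouse 2 (0.113), 3 (0.0784), 55 (0.0734) or 62 (0.148).

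Of 11 other CC chemokines, 4 were expressed enough to be tested. At 6 hr *Ccl8* had gained 3.32 and *Ccl24* 2.75 in WT cells, and between genotypes at 6 hr *Ccl8* was lower (-0.48, SE 0.13, adjusted p = 0.0226) and *Ccl24*, an eosinophil attractant, higher (0.30, SE 0.071, adjusted p = 0.0137) in *Cpeb4*-/-. Among 14 receptor genes 7 or 8 were tested. *Ccrl2*, which binds chemerin, rose by 3.21 at 1 hr in WT and was lower in *Cpeb4*-/- at 3 hr (-0.30, adjusted p = 0.0409) and 6 hr (-0.29, adjusted p = 0.0294), and *Ccr1*, *Ccr7* and *Ccr9* rose by 1.08, 2.08 and 1.65 at 6 hr in WT. None of the tested receptors passed between genotypes in untreated cells, at 1 hr or at 9 hr.

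All 16 transcription and mRNA decay factors known to act on chemokine genes or mRNAs were tested. In WT cells 13 of 16 were higher at 1 hr, led by *Zfp36* (2.91), which encodes tristetraprolin, *Irf1* (2.62), *Rel* (2.31) and *Zc3h12a* (1.82), which encodes an RNase, and from 6 to 9 hr 13 of 16 fell. Over all genes, 33.9% and 51.4% passed in either direction in these 2 comparisons. Between genotypes, 0 of 16 passed in untreated cells and at 1 hr. At 3 hr *Irf4* was higher (1.03, SE 0.17, adjusted p = 0.0126) and *Irf5* lower (-0.27, adjusted p = 0.0254) in *Cpeb4*-/-. At 6 hr 1 was higher, *Nfkb1* (0.21), and 5 were lower, with *Irf5* (-0.31), *Zfp36* (-0.23) and *Irf7* (-0.22) leading, and at 9 hr *Rela* was lower (-0.25). Over all genes, 1.31%, 1.91%, 3.68%, 16.3% and 7.91% passed between genotypes from untreated to 9 hr. The LPS response to 6 hr differed between genotypes for *Zfp36* (-0.33, adjusted p = 0.0347) and *Irf5* (-0.31, adjusted p = 0.0098), beside 2.94% of all genes.

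By Pearson's r of the 10 group means, a description over genotype and time, the genes most like each CC chemokine among 12951 were as follows. *Ccl3* ran closest to *Marcks* and *Ccl4* (both 0.992), and *Ccl4* to *Ccl3* and then *Sar1a* and *Pcbp1*. *Ccl5* ran with *Rab8a* (0.997), *Psme2* (0.997) and *Fpr2* (0.996), and *Ccl22* with *Klf7* (0.997), *Nfkb2* (0.994) and *Fas* (0.992). For *Ccl2* they were *Rbm7* (0.979), *Tank* (0.975) and *Il1b* (0.973), for *Ccl7* *Rhoa* (0.990), *4933432I03Rik* (0.990) and *Morf4l1* (0.988), and for *Ccl12* *Ube2d3* (0.994), *Samsn1* (0.989) and *Nipsnap3b* (0.987). For *Ccl9* they were *P2ry2* (0.995), *Stk40* (0.994) and *Fas* (0.994), for *Ccl17* *Tmem167* (0.996), *Rpf2* (0.994) and *Slc39a14* (0.994), and for *Ccl6* *Washc3* (0.956), *Pigf* (0.938) and *Akr1a1* (0.929). Among pairs of CC chemokines, r was highest for *Ccl3* with *Ccl4* (0.992), *Ccl9* with *Ccl22* (0.984) and *Ccl7* with *Ccl12* (0.974), and lowest for *Ccl6* with *Ccl17* (0.351).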

How the data were processed

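Poly(A) RNA of 40 macrophage libraries was amplified for 8 cycles and sequenced. Per the submitters' processing notes, the authors aligned reads with STAR 2.3.0e to mm10, counted them per gene with featureCounts and deposited regularized log2 values (rlog) from DESeq2. The deposited table holds 27179 genes and no counts, so read depth is unknown here and its effect on precision could not be given, and the handling of strand and of reads that map to several genes was not given in the sources used here. All value columns were assigned to a sample by its title.

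Groups, mice and batches were taken from the labels. Genotypes were compared within each time (8 libraries), times within each genotype (20 libraries), and the interaction over 40 libraries, with limma 3.58.1 (trend; R 4.3.3). Genes entered a fit where their rlog averaged log2 of 5 or more. P-values were adjusted over all genes tested by the Benjamini-Hochberg method, and calls are adjusted p under 0.05. Libraries of one mouse at different times deviated together (median r 0.29, 68 of 80 pairs over 0.1, against -0.09 between mice), so the mouse was also fitted as a replicate block. For single mRNAs, the difference of the group means of 4 against 4 libraries was also tested by two-sided exact permutation.

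All 10 mRNAs were named at every comparison, with up to 4 called genes per list of other CC chemokines, receptors and regulators and the 3 genes most like each mRNA. Members and lists were chosen with earlier results of these data known. Alternatives were no filter, an average rlog of 5 or more, eBayes without trend or robust, quantile normalization, batch as covariate, all 40 libraries in one fit, the replicate block and leaving out each mouse. The fits were tested on simulated data. UTRs and motifs came from GENCODE vM21 and RefSeq on GRCm38, searched in Python 3.11.15.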

Additional observations from a re-analysis of the deposited data

Results flagged for a closer look

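*Ccl5* at 6 hr in WT macrophages held 1 value that stood apart from the other 3 of its group: mouse 25 read 16.51, against 16.59 for the nearest and 16.61 for the highest mouse, a gap of 0.876 of the whole range, past Dixon's 95% limit for 4 values. It was 1 of 100 groups of 4 examined, where chance alone gives about 1 in 20, and the same mouse read below its group mean in 10 of 10 CC chemokine mRNAs at that time.

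The gain of *Ccl3* from untreated to 9 hr differed between the genotypes by -0.54 on the log2 scale (limma interaction over 40 libraries, adjusted p = 0.0396). WT cells gained 1.57 and *Cpeb4*-/- cells 1.03, and at 9 hr all 4 *Cpeb4*-/- values lay below the 4 WT values. Over all genes, 8.51% were apart in this way at 9 hr. The interaction call was lost without the trend (adjusted p = 0.0527) and without the filter (0.0668). It was also lost on leaving out any single mouse other than WT mouse 88.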

How the results depend on the processing

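Between LPS and untreated cells, 8 to 10 of the 10 mRNAs passed in either direction under every alternative, and from 6 to 9 hr 7 to 10 did, though under quantile normalization the direction of *Ccl6* and of smaller steps turned. With all 40 libraries in one fit, 5 CC chemokine mRNAs passed between genotypes at 1 hr (main 0) and 4 at 3 hr (main 2), the same with and without the replicate block. At 3 hr 0 passed with batch as covariate, 0 without trend, 0 without the filter and 1 under quantile normalization. Without the filter 0 passed at 6 hr (main 1) and 1 at 9 hr (main 3). More genes then enter both the fit and the adjustment, and which of these moved the calls was not tested. For the interaction at 9 hr (main 1) 2 passed with batch as covariate, 0 without trend and 0 without the filter. With the replicate block 1 passed at 6 hr (main 0), 2 at 9 hr and 2 from 6 to 9 hr (main 0), and the block changed no other call apart from *Ccl17* at 1 hr in *Cpeb4*-/-. When each mouse was left out in turn, the counts ran from 0 to 5 at 1 hr (2 without *Cpeb4*-/- mouse 2, 5 without WT mouse 69), 0 to 5 at 3 hr (5 without WT mouse 88), 1 to 3 at 6 hr (3 without WT mouse 25), 1 to 4 at 9 hr (1 without WT mouse 25), and for the interaction 0 to 2 at 9 hr and 0 to 2 from 6 to 9 hr (2 in each without WT mouse 88). As a percent of the value at 6 hr rather than of the highest time, 33.5% of *Ccl4* was left at 9 hr in WT and 23.7% in *Cpeb4*-/-.

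Under quantile normalization the genotype difference became 0.0023 (untreated) and 0.043 (3 hr) for *Ccl9*, -0.020 (untreated) for *Ccl17* and 0.0020 (9 hr) for *Ccl6*. The LPS difference of *Ccl6* became -0.18, -0.58 and -0.74 at 1, 3 and 6 hr in WT and -0.28, -0.55 and -0.51 at 1, 6 and 9 hr in *Cpeb4*-/-. The step from 6 to 9 hr became 0.16 for *Ccl5*, 0.15 for *Ccl6* and 0.091 for *Ccl9* in WT and 0.042 for *Ccl6* in *Cpeb4*-/-. The interaction became 0.0031 (1 hr) and 0.096 (3 hr) for *Ccl9*, 0.010, 0.0024 and 0.044 (6 hr) for *Ccl2*, *Ccl3* and *Ccl4*, and -0.065 (6 to 9 hr) for *Ccl12*. The cause was not tested.

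Leaving out 1 mouse, the genotype difference ranged from -0.064 to 0.026 (*Ccl9*) and -0.047 to 0.037 (*Ccl17*) in untreated cells, -0.23 to 0.073 (*Ccl17*) at 3 hr, and -0.19 to 0.0023 (*Ccl2*), -0.090 to 0.022 (*Ccl6*) and -0.15 to 0.056 (*Ccl22*) at 9 hr. The LPS difference of *Ccl6* ranged from -0.041 to 0.087 at 3 hr and -0.062 to 0.060 at 9 hr in WT and from -0.069 to 0.053 at 1 hr in *Cpeb4*-/-. The interaction ranged from -0.11 to 0.014 (*Ccl6*) and -0.23 to 0.099 (*Ccl17*) at 3 hr, -0.10 to 0.098 (*Ccl2*), -0.15 to 0.069 (*Ccl7*) and -0.069 to 0.11 (*Ccl22*) at 9 hr, and -0.11 to 0.11 (*Ccl12*) from 6 to 9 hr.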

Other observations

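CC chemokine mRNAs of a mouse tended to lie on the same side of their group mean at a given time, and the side changed with time. WT mouse 69 was below the mean of the 4 WT mice in 9 of 10 mRNAs at 1 hr and in 10 of 10 at 3 hr (median deviations -0.26 and -0.13 on the log2 scale), and above it in 10 of 10 at 9 hr (0.10). WT mouse 25 was above the mean in 10 of 10 at 3 hr (0.17) and below it in 10 of 10 at 6 hr (-0.11), while WT mouse 87 was above it in 10 of 10 at 3 hr (0.20) and WT mouse 88 below it in 9 of 10 (-0.21). Among *Cpeb4*-/- mice, mouse 62 was below its group mean in 8 to 10 of 10 mRNAs at every time (10 of 10 at 9 hr, -0.19), and mouse 55 above it in 10 of 10 at 3 hr (0.18). The 10 mRNAs share their libraries, so these counts are a description without a test.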
